A study of Mus musculus with 2 samples.

Results

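The endoderm-like cells of the MERVL-GFP negative library were 225 of its 3824 cells with at least 10000 UMIs, or 5.88% (exact Clopper-Pearson 95% interval 5.16 to 6.68). A UMI is a molecular tag that lets each captured transcript be counted once. The cells were chosen by measured values: a cell belonged to the set when Gata6, Sox17, Pdgfra and Dab2 together held at least 0.03% of its UMIs. The other 3599 cells of that size in the library served as the comparison. The library held 3832 cells in all, of which 8 were left out for depth, and both libraries of the series held 8435 cells. The cells are mouse embryonic stem cells (mESC), which self-renew in culture and can form every tissue of the embryo. All cells of both groups belong to an engineered line in which the promoter of MERVL, an endogenous retrovirus, drives GFP, and in which H2B-mIFP, a far-red nuclear protein, allows tracking. GFP marks a passing state that resembles the 2-cell embryo (2C-like), whose fate the study set out to follow. There was 1 library of cells labelled MERVL GFP positive and 1 of cells labelled MERVL GFP negative. The labels give no strain, culture medium, time point or drug for either group, and no number of clones or cultures, and they do not say how the cells were separated.

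Primitive endoderm is the epithelium that forms beside the pluripotent epiblast in the blastocyst and later gives the visceral and parietal endoderm of the yolk sac. It is specified by FGF signalling and by the transcription factors GATA6, GATA4, SOX17 and SOX7, while the epiblast keeps NANOG and SOX2. Its cells secrete basement membrane, take up proteins by endocytosis, and arise at a low rate in cultures of embryonic stem cells.

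The values that chose the cells are given as a description. In the 225 endoderm-like cells the 4 genes together took from 0.0336% to 0.327% of a cell's UMIs, with a median of 0.120%. In the remaining cells the median was 0, and 2674 of them held no UMI of any of the 4 genes. The lowest values inside the threshold were 0.0336% and 0.0379%, and the highest outside it were 0.0293% and 0.0288%. Only 10 cells of the library lay between 0.02% and 0.04%, 3 inside and 7 outside, so few cells were placed by the exact threshold. Gata6 summed to 633 CPM (counts per 1000000 UMIs of the summed cells) in the endoderm-like cells and 3.84 CPM in the remaining cells. The corresponding levels were 197 and 0.838 CPM for Sox17, 147 and 0.967 CPM for Pdgfra, the receptor of platelet-derived growth factor, and 288 and 3.12 CPM for Dab2, an adaptor of endocytosis.

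The endoderm-like cells were as deeply sampled as the others, with a median of 40328 UMIs (12431 to 116751) and 5949 genes against 39086 UMIs and 5842 genes. The median share of mitochondrial UMIs was 1.39% against 1.61%. Cells with more than 2 times the library's median UMIs were 9 of the 225, or 4.0%, against 68 of the remaining cells, or 1.89%. The libraries shared 3 cell barcodes, none of which belonged to an endoderm-like cell. Each group had a single library whose batch label repeats the group, so a batch effect and a group effect cannot be told apart. Cells of 1 library are not replicates, so no test was run: all ratios below compare sums over cells, and their 95% intervals (exact Poisson for a level, exact conditional for a ratio) cover counting error only.

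The markers set down for the label were Gata6, Sox17, Foxq1 and Cyp4f14. Gata6 and Sox17 are in the sum that chose the cells, so their high levels were set in part by that choice. Outside that sum, Foxq1 and Cyp4f14 were also high. Foxq1, a forkhead transcription factor, stood at 330 CPM (319 to 342) against 1.92 CPM (1.70 to 2.16), and Cyp4f14, a cytochrome P450, at 227 CPM (218 to 237) against 1.16 CPM (0.997 to 1.35). Both markers were set down with results of these data known, so they describe the cells and do not check them independently. Markers of other cell types were scarce. The fibroblast list (14 genes) summed to 19.2 CPM in the endoderm-like cells and 10.04 CPM in the remaining cells, with Col3a1 and Postn at 0 UMIs and only Twist1 past the size rule, and per cell it reached at most 0.0214% of UMIs. The blood and endothelium list (7 genes) summed to 6.4 and 2.81 CPM, with Ptprc at 0 in both sets and Tal1 at 0 in the endoderm-like cells. In the endoderm-like cells most of that sum came from Cdh5, a cadherin of endothelial junctions, at 5.67 CPM, while the remaining cells had 0.0613 CPM of it. The neural list (8 genes) summed to 16.9 and 51.6 CPM, the primitive streak list (10 genes) to 4.93 and 15.6 CPM, and the trophoblast list (11 genes) to 35 and 55.8 CPM. T, a defining gene of the streak, had 1 UMI and Cdx2, one of trophoblast, had 9 UMIs in the 225 cells.

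Across the transcriptome the endoderm-like cells had more genes at raised than at lowered levels. The size rule asked for at least 10 CPM in either set of cells, at least 50 UMIs in total and a ratio of CPM + 1 of at least 2, and the 4 genes of the rule were left out. Of 7604 genes that reached these levels, 445 (5.85%) were higher and 263 (3.46%) were lower in the endoderm-like cells. With a ratio of at least 4 the counts were 146 (1.92%) and 31 (0.408%). All counts of list genes past the ratio of 2, given below, read against the 5.85% and 3.46%. A gene under 10 CPM in the remaining cells reached the levels only through the endoderm-like cells and could not be called lower. The median log2 ratio over all 7604 genes was 0.03, and it lay between -0.04 and 0.03 over 5 ways of scaling the counts, CPM among them.

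**Figure D1:**
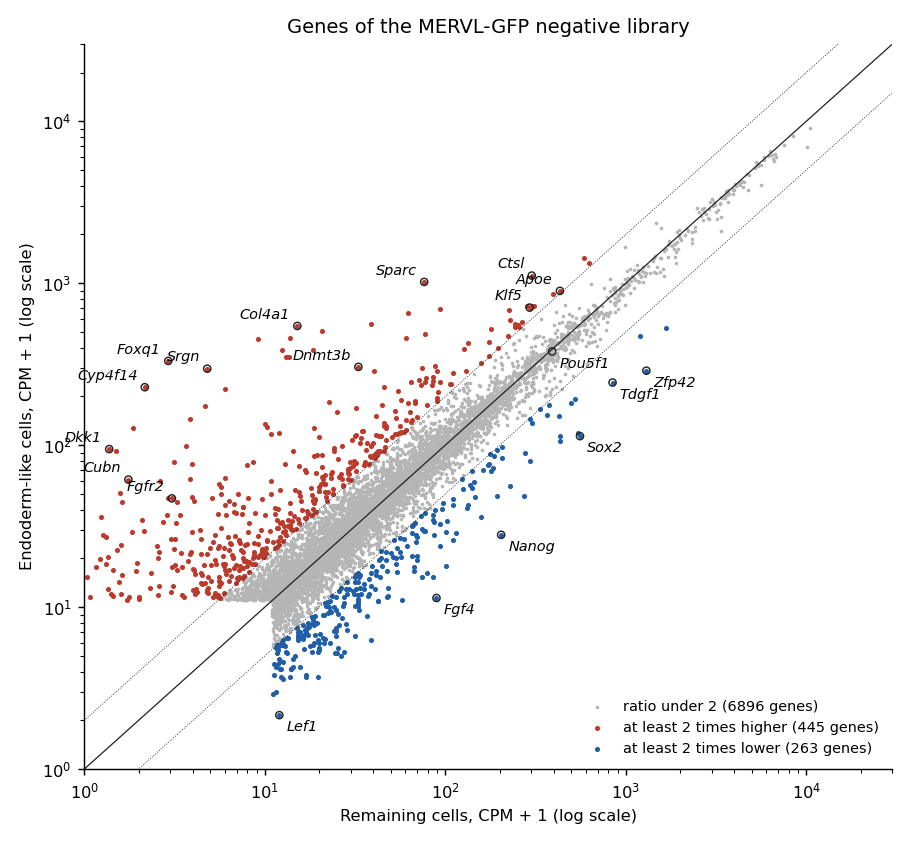
Each point is 1 of 7604 genes of the MERVL-GFP negative library, with CPM + 1 summed over the 3599 remaining cells on the x axis and over the 225 endoderm-like cells on the y axis, both on log scales. The solid line marks equal levels and the dotted lines a ratio of 2. Foxq1, Cyp4f14, Dkk1 and Srgn lie far above the lines, Fgf4 and Nanog below them, and Pou5f1 near equality.

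The 15 genes with the largest ratios upward had log2 ratios of CPM + 1 between 4.96 and 6.83. After Foxq1 and Cyp4f14 came Dkk1, which encodes a secreted Wnt inhibitor, at 93.6 against 0.375 CPM, a ratio of 250 (190 to 334). Nostrin, whose product binds nitric oxide synthase at membranes, stood at 127 against 0.872 CPM, a ratio of 146 (121 to 176). Srgn, the core protein of the proteoglycan serglycin, stood at 296 against 3.80 CPM, a ratio of 77.8 (71.0 to 85.4). Fbp2, a fructose-bisphosphatase, stood at 450 against 8.18 CPM, and Car4, a carbonic anhydrase held at the cell surface, at 174 against 3.66 CPM. Runx1, a transcription factor best known from blood stem cells, stood at 145 against 2.85 CPM, while the blood genes named above were at 0. Hs3st1, a heparan sulfate sulfotransferase, stood at 49.7 against 0.586 CPM. Gata6os, transcribed from the strand opposite Gata6, stood at 91.3 against 0.490 CPM. The sources used here do not say whether counting kept the strand, so its reads cannot be told apart from those of Gata6. The others were Col4a1, Col4a2, Lamb1, Cubn and the unnamed gene model Gm49089.

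Single cells varied widely for these genes. Foxq1 ran from 0 to 1329 CPM with a median of 293 CPM in the endoderm-like cells. In the remaining cells its median was 0, the highest cell reached 1066 CPM, and 0.0834% of cells lay above the endoderm-like median. Cyp4f14 ran from 0 to 2056 CPM with a median of 72.0 CPM, Srgn from 0 to 5451 CPM with a median of 109 CPM, and Dkk1 from 0 to 588 CPM with a median of 51.9 CPM. The 2 sets of cells thus overlapped in each of these genes, through endoderm-like cells at 0 and through rare remaining cells with high values. With every cell thinned to 10000 UMIs, Foxq1 was detected in 80.0% of endoderm-like cells (74.2 to 85.0) and 1.53% of the remaining cells, against 89.8% and 5.58% without thinning. For Cyp4f14 the thinned shares were 54.7% (47.9 to 61.3) and 1.08%, and the unthinned shares 64.0% and 4.22%.

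**Figure D2:**
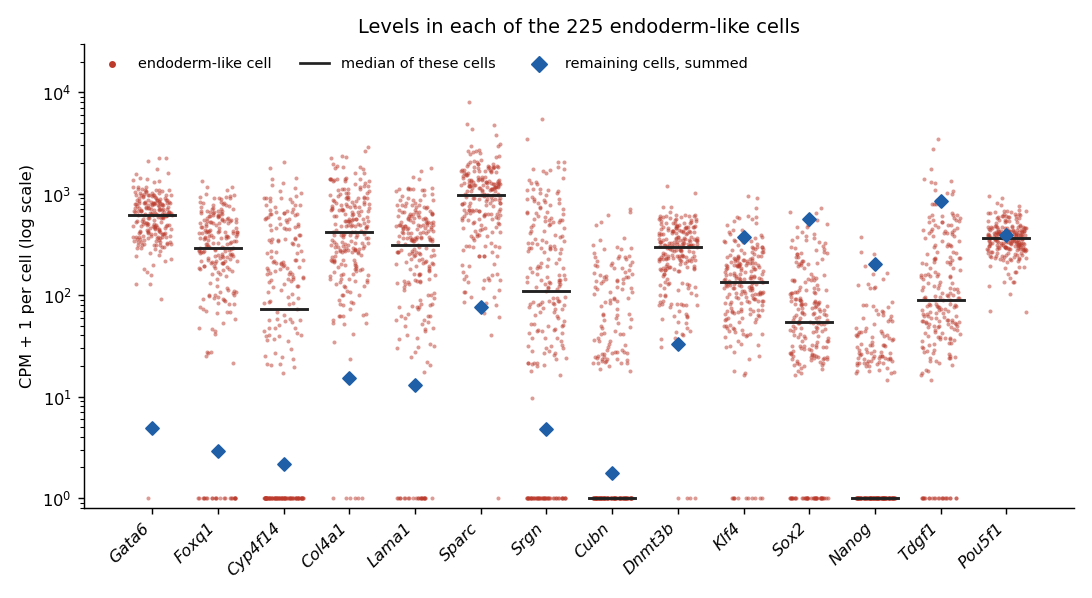
Each red point is 1 of the 225 endoderm-like cells, with CPM + 1 of the named gene on a log y axis, where 1 stands for no UMI. The black bar is the median of these cells and the blue diamond the level summed over the 3599 remaining cells. Pou5f1 cells gather around the diamond, while Foxq1, Col4a1 and Dnmt3b lie mostly above theirs and Sox2 and Nanog mostly below.

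The 250 bases upstream of the annotated starts of 3 of these genes are shown, because the genes were high in the same set of cells and have 3 different functions: an enzyme, a membrane adaptor and an endocytic receptor. They come from RefSeq, build GRCm38.p6, each in the direction of transcription and free of annotated exons. Cyp4f14 is at chr17:32917357-32917606 on the minus strand (the start farthest upstream), Nostrin at chr2:69135550-69135799 on the plus strand and Cubn at chr2:13491877-13492126 on the minus strand. Capitals mark ACAANG on either strand, the core of the sites that SOX proteins bind, and GATAA on either strand, that of GATA proteins.
Cyp4f14: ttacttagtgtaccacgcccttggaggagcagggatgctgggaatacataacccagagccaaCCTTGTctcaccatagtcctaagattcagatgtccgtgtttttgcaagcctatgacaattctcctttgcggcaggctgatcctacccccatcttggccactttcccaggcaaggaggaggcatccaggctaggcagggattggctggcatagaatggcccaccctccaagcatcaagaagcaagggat
Nostrin: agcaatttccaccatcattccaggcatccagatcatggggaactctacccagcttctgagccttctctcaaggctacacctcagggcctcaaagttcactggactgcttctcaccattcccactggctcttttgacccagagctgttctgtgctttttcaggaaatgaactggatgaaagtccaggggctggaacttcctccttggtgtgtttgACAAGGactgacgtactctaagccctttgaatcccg
Cubn: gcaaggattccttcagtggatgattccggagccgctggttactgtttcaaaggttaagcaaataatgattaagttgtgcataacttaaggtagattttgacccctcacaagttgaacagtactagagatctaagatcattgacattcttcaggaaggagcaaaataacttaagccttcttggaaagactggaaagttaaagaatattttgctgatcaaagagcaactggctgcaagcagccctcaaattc
Of the 15 leading genes 12 had an entry, and Foxq1, Gata6os and Gm49089 had none. ACAANG occurred upstream of 5 of these 12 genes (41.7%), against 39.9% of all 27025 genes of the RefSeq table. GATAA occurred upstream of 1 of the 12 (8.33%), Cyp4f14 at another of its starts, against 25.5% of all genes. A match is a description of letters in the window and not a bound site.

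Among the endoderm transcription factors, 5 of 11 listed genes reached the size rule, which they did only through their level in the endoderm-like cells. They included Foxq1, Gata4, Sox7 and Foxa2, and the 5 had a median log2 ratio of 4.36 beside 0.03 over all genes. Gata4, the partner of GATA6 in extraembryonic endoderm, stood at 43.7 against 0.627 CPM, a ratio of 69.8 (55.6 to 88.5). Sox7, the SOX factor of parietal endoderm, stood at 26 against 0.313 CPM. Foxa2, which acts in visceral and definitive endoderm, stood at 10.6 against 0.0749 CPM. Gata4 was detected in 33.3% of thinned endoderm-like cells (27.2 to 39.9), Sox7 in 21.8% (16.6 to 27.7) and Foxa2 in 8.44% (5.16 to 12.9). In the remaining cells these shares were 0.556%, 0.361% and 0.0834%, and unthinned shares in the endoderm-like cells were 72.4%, 50.2% and 29.3%. The other 6 listed factors were too low for the rule, among them Hnf4a at 1.89 CPM, Eomes at 4.30 CPM, Hhex at 7.66 CPM and Gata5 with 1 UMI.

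Genes of the basement membrane, the sheet of laminin and type IV collagen on which epithelia rest, were among the most raised in the endoderm-like cells. Of 12 listed genes 7 were higher, 1 was lower and 4 were neither, with a median log2 ratio of 2.38. Among all 7604 genes 5.85% were higher and 3.46% lower. The list took a median of 0.300% of UMIs per endoderm-like cell (0.0184% to 1.35%) and 0.0318% per remaining cell (0 to 0.681%). Only 2 of the 225 cells lay under the median of the remaining cells, and 0.0834% of the remaining cells lay above the endoderm-like median. The 3 chains of laminin-111 were all higher: Lama1 at 349 against 12.1 CPM (ratio 28.8, 27.2 to 30.6), Lamb1 at 387 against 11.5 CPM and Lamc1 at 456 against 59.4 CPM. Col4a1 and Col4a2, the chains of the common type IV collagen, stood at 544 against 14.1 CPM and 223 against 5.01 CPM. Col4a2 reached the levels only through the endoderm-like cells. Sparc, a collagen-binding matrix protein, stood at 1018 against 75.4 CPM, and Hspg2, the proteoglycan perlecan, at 113 against 30.6 CPM. Col18a1, the collagen that carries endostatin, was lower at 20.5 against 49.0 CPM. The linker nidogens Nid1 and Nid2 stood at 41.1 against 23.3 CPM and 36.8 against 33.4 CPM, and Lama5 and Agrn were also short of the ratio.

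The machinery that folds and modifies collagen was also higher. Of 11 listed genes 10 reached the levels of the size rule and all 10 of these were higher, with a median log2 ratio of 1.47. P3h2 had 7 UMIs. P4ha2, Plod1, Plod3 and P3h1 reached the levels only through the endoderm-like cells and could not be called lower. Serpinh1, the collagen chaperone HSP47, stood at 504 against 19.8 CPM, a ratio of 25.5 (24.3 to 26.7), and ran from 0 to 1518 CPM per endoderm-like cell with a median of 463 CPM. The prolyl hydroxylase subunits P4ha1 and P4ha2 stood at 185 against 21.6 CPM and 77.6 against 7.60 CPM, and the lysyl hydroxylase Plod2 at 168 against 31.1 CPM. Across the 225 cells the share of UMIs in this list went with that in the basement membrane list (Pearson r 0.70, Spearman rho 0.80). Both shares come from the same libraries and divide by the same cell totals, so this is a description only. General chaperones of the endoplasmic reticulum were higher to a smaller degree: 7 of 13 passed and none was lower, with a median log2 ratio of 1.08. Calr, a calcium-binding chaperone, stood at 589 against 228 CPM, and Hspa5, the chaperone BiP, at 723 against 283 CPM.

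Endocytic receptors and lysosomal proteases were higher in part. Cubn and Amn, the partners of the cubilin complex that absorbs proteins in visceral endoderm, stood at 60.3 against 0.756 CPM (ratio 79.8, 65.0 to 98.7) and 78.1 against 2.16 CPM. Lrp2, the receptor megalin, stood at 43.1 against 12.8 CPM, and Lrpap1, its chaperone, at 559 against 37.7 CPM. Of the 8 listed genes 7 reached the levels. The 4 genes just named were higher, and the other 3, Lrp1 and Scarb1 among them, were neither. Cubn, Amn and Scarb1 reached the levels only through the endoderm-like cells and could not be called lower. Over all 7604 genes the shares were 5.85% higher and 3.46% lower. The cubilin pair was not in every cell: Cubn ran from 0 to 703 CPM with a median of 0, and 49.8% of endoderm-like cells held a UMI of it against 2.78% of the remaining cells (32% and 0.584% after thinning). Lrpap1 was in all 225 cells and ran from 36.3 to 2243 CPM with a median of 504 CPM. Among 14 of 15 lysosomal genes that reached the levels, Ctsl, Ctsz and Lgmn were higher, and the list's median log2 ratio was 0.76. Ctsl, a cathepsin abundant in yolk sac endoderm, stood at 1114 against 300 CPM. One endoderm-like cell with 13392 UMIs reached 33976 CPM of Ctsl, more than 2 times the next cell at 14029 CPM, and the level without that cell was 1068 CPM. That cell was also the only one of the 225 without a UMI of Gata6, and it entered the set on 3 UMIs of Sox17 and 13 of Dab2.

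Genes of the later endoderm types were present in part. Of 15 visceral endoderm genes 4 reached the levels. Of these, Apoe, an apolipoprotein, was higher at 896 against 431 CPM and Spink1, a secreted protease inhibitor, at 51.5 against 13.7 CPM, while Rbp4 and Mttp were neither. Ttr and Apoc2 had 0 UMIs in both sets, and Afp, the alpha-fetoprotein of mature visceral endoderm, had 0 UMIs in the endoderm-like cells and 10 in the remaining cells. No UMI of Ttr in 225 cells allows a level of up to 0.315 CPM at the floor of 3 counts. Of 8 parietal endoderm genes 4 reached the levels. Snai1, a repressor of epithelial genes, was higher at 17.6 against 0.967 CPM, Fst, the activin antagonist follistatin, at 48.7 against 6.08 CPM and Tfpi, a coagulation inhibitor, at 151 against 40.2 CPM. Snai1 and Fst reached the levels only through the endoderm-like cells. Vim, the filament protein vimentin, stood at 349 against 202 CPM. Thbd and Plat, established parietal genes, had 2 and 26 UMIs. Of the anterior visceral endoderm genes Cer1 had 0 UMIs, Lhx1 had 12, Lefty1 stood at 14.5 against 23.3 CPM, Otx2 was lower at 5.35 against 20.5 CPM, and Dkk1 was higher as given above. The simple epithelial keratins Krt8 and Krt18 stood at 37.9 against 5.78 CPM and 17.4 against 7.53 CPM, while the adhesion genes Cdh1 and Epcam, at 62.0 against 43.1 CPM and 91.7 against 98.6 CPM, were short of the ratio.

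**Figure D3:**
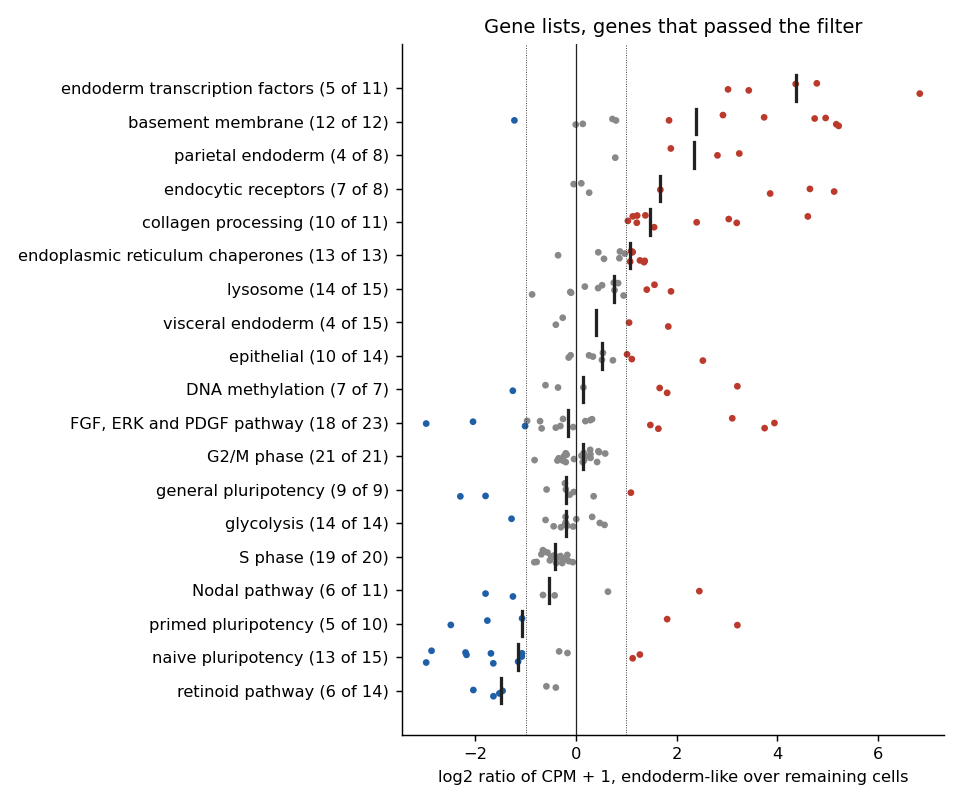
Each point is a listed gene that reached the levels of the size rule, placed by its log2 ratio of CPM + 1 in the endoderm-like over the remaining cells; red and blue points are past the dotted lines at a ratio of 2, and the bar is the list's median. Labels give the genes shown of those listed. Only some of the lists are drawn, and their medians run from 4.36 for endoderm transcription factors to -1.15 for naive pluripotency and -1.49 for the retinoid pathway. The 5 endoderm transcription factors shown reached the levels only through the endoderm-like cells, so their high median follows in part from the filter.

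Genes of the signalling pathways differed in both directions. For FGF, which directs cells towards primitive endoderm, the ligand gene Fgf4 of the epiblast had the lowest log2 ratio of the 7604 genes (-2.97), at 10.4 against 88.4 CPM, a ratio of 0.118 (0.0955 to 0.143). The receptor Fgfr2, which marks primitive endoderm, was higher at 46.0 against 2.06 CPM, a ratio of 22.3 (19.2 to 25.9), while Fgfr1 stood at 14.3 against 24.0 CPM. Fgfr2 ran from 0 to 295 CPM with a median of 37.0 CPM in the endoderm-like cells and had a median of 0 in the others. The pathway's feedback inhibitors Dusp4, Spry1 and Spry2 were higher, at 134 against 9.07 CPM, 23.2 against 6.78 CPM and 235 against 83.9 CPM. Dusp6, Etv4 and Spry4, targets of the same pathway, were short of the ratio at 17.4 against 21.0 CPM, 31.4 against 41.7 CPM and 64.2 against 52.5 CPM. Egr1 and Ccnd1 were lower, the latter at 10.7 against 47.2 CPM, and the ligand Fgf3 was higher at 15.7 against 0.947 CPM. In all, 5 of the 18 pathway genes that reached the levels were higher and 3 were lower, with a median log2 ratio of -0.15. Over all 7604 genes 5.85% were higher and 3.46% lower. Fgfr2, Fgf3, Dusp4 and Spry1, under 10 CPM in the remaining cells, reached the levels only through the endoderm-like cells. Fgf10 and Klb, a ligand and a co-receptor of the same family named after their values were seen, stood at 28.1 against 0.845 CPM and 17.5 against 0.327 CPM.

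The Wnt and Nodal lists held members in both directions. Of the listed BMP genes 1 passed the ratio and of the listed retinoid genes 4, all of them lower. Bmp6, a BMP ligand outside the list, was higher and is given under other observations. Of 5 Wnt genes that reached the levels, Dkk1, the ligand Wnt6 (25.4 against 3.46 CPM) and the feedback gene Axin2 (16.7 against 2.07 CPM) were higher, and the effector Lef1 (1.15 against 11 CPM) and the receptor Fzd5 (31.9 against 67.1 CPM) were lower. Of 6 Nodal pathway genes, the inhibitor Lefty2 was higher at 40.5 against 6.59 CPM. Nodal itself (7.97 against 20.3 CPM) and its co-receptor Tdgf1 were lower. Dkk1, Wnt6, Axin2 and Lefty2 reached the levels only through the endoderm-like cells and could not be called lower. The counts in these lists stand beside 5.85% higher and 3.46% lower of all 7604 genes. Of 8 BMP pathway genes only Id2, an inhibitor of helix-loop-helix factors, passed, lower at 13.2 against 31.9 CPM. Of 6 retinoid genes none was higher and 4 were lower: the receptors Rara and Rarg, the binding protein Crabp1 and the target Stra8, the last at 31.7 against 92.7 CPM.

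Pluripotency genes were not reduced as a block. Of 13 naive genes that reached the levels, 9 were lower and 2 were higher, with a median log2 ratio of -1.15. The shares over all 7604 genes were 3.46% lower and 5.85% higher. Nanog, which opposes GATA6, stood at 27.0 against 203 CPM, a ratio of 0.133 (0.117 to 0.15), and its median cell held 0 CPM (highest 375) against 163 CPM (highest 2523) in the remaining cells. Of the endoderm-like cells 97.8% lay under that median of the remaining cells. Zfp42, known as Rex1, stood at 287 against 1299 CPM, Klf2 at 118 against 543 CPM, Klf4 at 177 against 374 CPM and Esrrb, an orphan nuclear receptor, at 25.7 against 55.1 CPM. Klf5 and Tbx3, transcription factors of the same list, went the other way, at 706 against 292 CPM and 532 against 243 CPM. Klf5 had a median of 639 CPM per endoderm-like cell (0 to 2281) and 253 CPM per remaining cell (0 to 1650), and 6.36% of the remaining cells lay above 639 CPM. Among the 9 general pluripotency genes, Sox2 was lower at 113 against 556 CPM (median cell 52.8 against 535 CPM) and Tdgf1 was lower at 243 against 844 CPM. Pou5f1, the gene of OCT4, stood at 378 CPM (per cell 67.0 to 951, median 364) against 390 CPM (0 to 1050, median 378), a ratio of 0.970 (0.938 to 1.0). Utf1 stood at 413 against 450 CPM, and Lin28a, an RNA-binding protein, was higher at 74.3 against 34.3 CPM. The other leading genes downward included Ifitm1, an interferon-induced membrane gene, at 47.6 against 273 CPM, Eras, an embryonic stem cell RAS, at 14.4 against 84.3 CPM, and Tcea3, an elongation factor, at 14.3 against 73.3 CPM. The 15 leading genes downward had log2 ratios from -2.97 to -2.27.

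The enzymes that place new DNA methylation were higher, and those that maintain it did not pass the ratio. Dnmt3b stood at 303 against 32 CPM, a ratio of 9.48 (9.05 to 9.93), with a median cell of 299 CPM against 22.4 CPM. Dnmt3a stood at 121 against 33.6 CPM and their cofactor Dnmt3l at 245 against 76.7 CPM. The maintenance enzyme Dnmt1 and its partner Uhrf1 were short of the ratio at 89.0 against 136 CPM and 77.0 against 98.8 CPM, and Tet1, which oxidizes the mark, was lower at 153 against 366 CPM. Dnmt3b and Dnmt3a also belong to the list of primed pluripotency, of which Otx2, Zic5 and Lef1 were lower. Of 13 imprinted genes that reached the levels, the RNA H19 was higher at 56.7 against 4.56 CPM and Cdkn1c, Nnat and Phlda2 were lower. These counts stand beside 5.85% higher and 3.46% lower of all 7604 genes. H19 reached the levels only through the endoderm-like cells. H19 was uneven: 45.8% of endoderm-like cells held a UMI of it against 8.86% of the remaining cells (26.2% and 2.25% after thinning), and the highest cells reached 1214 and 2338 CPM.

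For genes of the cell cycle and of basic metabolism the counts past the ratio read against the 5.85% higher and 3.46% lower of all 7604 genes. No S phase gene (19 tested) or G2/M gene (21 tested) passed the ratio in either direction, at median log2 ratios of -0.42 and 0.14. Of 9 cyclin and inhibitor genes that reached the levels, 3 were lower: the cyclin gene Ccnd1 as given above, and the inhibitors of cyclin-dependent kinases Cdkn1c (15.5 against 53 CPM) and Cdkn1a (24.9 against 51.3 CPM). The S phase list took a median of 0.188% of UMIs per endoderm-like cell and 0.275% per remaining cell. Of 14 glycolysis genes, Slc2a1, the glucose transporter GLUT1, was lower at 55.8 against 137 CPM and the others were neither, at a median log2 ratio of -0.20. None of 86 cytosolic ribosomal protein genes passed, at a median log2 ratio of -0.03.

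The endoderm-like cells were not uniform, as seen when they were divided by which of the 4 rule genes had a UMI. These classes, and all others within the 225 cells, were chosen after values were seen. All 4 genes were detected in 156 cells (69.3%), Gata6, Pdgfra and Sox17 without Dab2 in 29, Gata6 and Pdgfra alone in 15, Gata6 alone in 12, and other combinations in 13. The 12 cells with Gata6 alone had 777 CPM of Gata6 (693 to 868) but few transcripts of the other endoderm genes: 9.93 CPM of Foxq1, 2.48 CPM of Cyp4f14, and 0 UMIs of Gata4, Sox7 and Amn. In these 12 cells Foxq1 and Cyp4f14, the markers set down for the label outside the rule, were near or under the floor of 3 counts (7.45 CPM), and Sox17 was at 0 by the definition of the class, so the cells are endoderm-like by the rule only. They also held 1132 CPM of Tdgf1, 382 CPM of Klf4, 315 CPM of Sox2 and 99.3 CPM of Nanog. Cells with all 4 genes held 387 CPM of Foxq1, 301 CPM of Cyp4f14, 666 CPM of Col4a1, 148 CPM of Tdgf1, 90.1 CPM of Sox2 and 24.7 CPM of Nanog. The 15 cells with Gata6 and Pdgfra had 98.9 CPM of Foxq1 and 43.9 CPM of Fgfr2, with Nanog at 20.1 CPM, while Col4a1 was at 181 CPM and Cyp4f14 at 18.3 CPM. Pou5f1 lay between 371 and 430 CPM in these 4 classes. Klf5 lay between 714 and 777 CPM and Tbx3 between 502 and 775 CPM, above the 292 and 243 CPM of the remaining cells also where Foxq1 was at 9.93 CPM. The median depth of these classes ran from 32061 to 42969 UMIs, lowest for Gata6 alone, and its part in the classes was not tested.

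**Figure D4:**
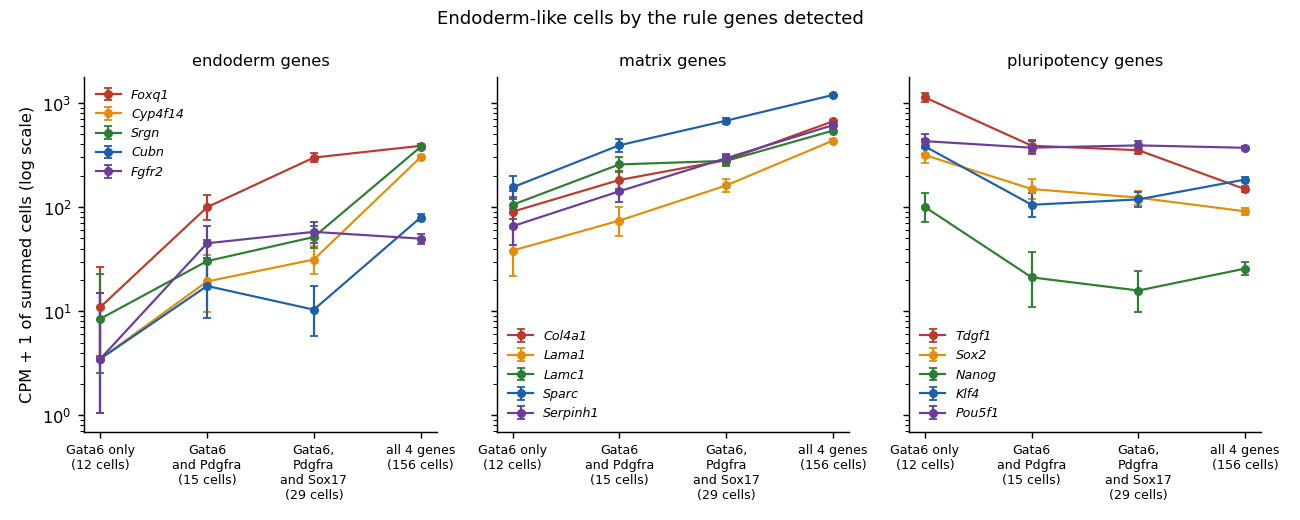
Levels (CPM + 1 of summed cells, log scale, with 95% Poisson intervals) of 5 endoderm genes, 5 matrix genes and 5 pluripotency genes in 4 classes of endoderm-like cells, divided by the rule genes that had a UMI. Foxq1 goes from 9.93 to 387 CPM and Sparc from 154 to 1194 CPM between the cells with Gata6 only and those with all 4 genes, Tdgf1 goes from 1132 to 148 CPM, and Pou5f1 stays between 371 and 430 CPM.

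The cells were also divided by Dab2 alone, the rule gene with the most cells at 0. The 57 cells without a UMI of it (25.3%, median depth 37979 UMIs) had 830 CPM of Gata6 against 572 CPM in the 168 cells with it (median depth 40931 UMIs). Both genes are in the sum that chose the cells, so a cell without Dab2 had to reach the threshold on the other genes, and the choice of cells favours this difference. By the size rule, 77 of 7625 genes (1.01%) were higher and 149 (1.95%) lower in the cells without Dab2. Lower in them were the endocytic genes Cubn (9.70 against 76.1 CPM) and Amn (17.6 against 96.9 CPM), as well as Cyp4f14 (22.1 against 291 CPM), Srgn (37.0 against 377 CPM) and Nostrin (21.6 against 160 CPM). Tfec, a transcription factor of the family that governs lysosomes, had 1 UMI in the cells without Dab2 and 135 in those with it. Matrix genes were lower to a smaller degree, Lama1 at 116 against 422 CPM and Col4a1 at 219 against 645 CPM. Higher in the cells without Dab2 were Tdgf1 (497 against 163 CPM), Bmp4 (65.3 against 17.9 CPM), Dusp6 (34.8 against 12 CPM), Egr1 (22.1 against 5.78 CPM) and Gm49089 (916 against 318 CPM). Fgfr2 (44.1 against 46.5 CPM), Pou5f1 (392 against 374 CPM) and Runx1 (128 against 150 CPM) were close in both. The remaining cells of the library, at 21.0 CPM of Dusp6, lay between these 2 classes. For Egr1 they had 20.4 CPM, within the counting interval of the cells without Dab2 (16.4 to 29.1).

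Some genes also differed between bands of the share of UMIs that chose the cells. In the bands under 0.1% (77 cells), 0.1% to 0.2% (116 cells) and 0.2% and over (32 cells), Col4a1 stood at 312, 589 and 1114 CPM and Srgn at 124, 331 and 713 CPM. Sox2 stood at 179, 73.6 and 62.0 CPM and Nanog at 45.9, 16.6 and 8.99 CPM in the same bands, while Pou5f1 stood at 357, 397 and 367 CPM. The 9 cells with more than 2 times the median UMIs had 330 CPM of Gata6, 315 CPM of Sox2 and 88.0 CPM of Nanog, against 663, 92.5 and 20.9 CPM in the other 216. Their levels of these genes lay between those of the other 216 cells and those of the remaining cells. Doublets were not called, and their part in these 9 cells was not tested.

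The reporter and the genes of the 2C-like state were low in the endoderm-like cells. GFP had 12 UMIs in 7 of the 225 cells, or 1.26 CPM (0.651 to 2.20), against 0.402 CPM (0.306 to 0.518) in the remaining cells. Its highest endoderm-like cell reached 142 CPM and its highest remaining cell 91.4 CPM, so the summed level of the 225 cells rests on few of them. The 2C list (26 genes) had 63 UMIs, 0.000661% of the total, against 0.000283% in the remaining cells, a ratio of 2.34 (1.76 to 3.05). A single cell, the one that reached 0.1% of its UMIs, held 38 of these 63 UMIs. Without it the other 224 cells had 25 UMIs of the list, or 0.000263%. In the MERVL-GFP positive library the same rule took 508 of 4403 cells, or 11.5% (10.6 to 12.5). There 114 cells lay between 0.02% and 0.04%, against 10 in the negative library, so that set depends more on the exact threshold. The 508 cells had a GFP level of 209 CPM, and 231 of them held at least 0.1% of UMIs from the 2C list.

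The contrast of endoderm-like with remaining cells was also formed inside the positive library, where the leading higher genes had smaller ratios. There, 435 of 8224 genes (5.29%) were higher and 451 (5.48%) lower. Among the 7330 genes measured in both libraries, 258 were higher in both, which is 62.9% of the 410 of the negative library and 82.4% of the 313 of the positive library. Lower in both were 201 genes, 88.2% of 228 and 60.5% of 332. The same 4 genes chose the cells in each library, so this overlap is a description. Foxq1 had log2 ratios of 6.83 and 5.36 in the negative and positive library, Fbp2 5.62 and 3.52, Car4 5.23 and 3.08, Dkk1 6.10 and 4.47, Col4a1 5.17 and 3.71, Dnmt3b 3.21 and 3.06, Nanog -2.87 and -3.17, and Pou5f1 -0.04 in both. Gm49089 had 5.06 and 0.57, and its level in the remaining cells was 12.8 CPM in the negative and 124 CPM in the positive library. Whether the ratios differ between the libraries was not tested.

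**Figure D5:**
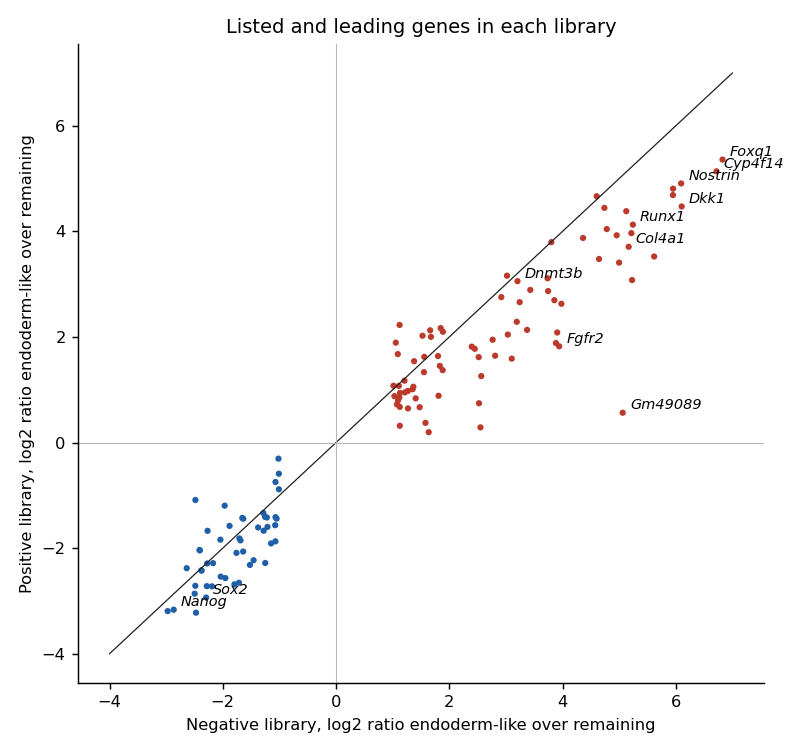
Each point is a listed or leading gene past the size rule in the negative library (red higher, blue lower), with its log2 ratio of CPM + 1 in endoderm-like over remaining cells of the negative library on the x axis and of the positive library on the y axis. The line marks equal ratios. All plotted genes lie on the same side of 0 in both libraries, and Gm49089, at 5.06 and 0.57, lies farthest below the line.

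Set against the 277 positive-library cells of the same rule with less than 0.1% of UMIs from the 2C list, the 225 cells had 48 of 7779 genes (0.617%) higher and 206 (2.65%) lower, with a median log2 ratio of -0.10. The library, its batch and the reporter cannot be told apart in this comparison. The 277 cells still held 121 CPM of GFP and 0.0359% of UMIs from the 2C list. Among the lowest ratios in the negative library were GFP (log2 ratio -5.75), the 2C gene Eif1ad8 (-5.69), Gm20767 (-7.15) and Gm21818 (-6.61), and all 7 genes of the 2C list that reached the levels were lower. Of the 206 lower genes, 180 were also lower by at least the same ratio of 2 between the remaining cells of the libraries, and 22 of the 48 higher genes were also higher there. Those remaining cells of the positive library were not limited by the 2C list, and 1583 of 3895 held at least 0.1% of UMIs from it. Values for the remaining cells, here and below, thus come from an unlike choice of cells. Gata6 (633 against 600 CPM) and Nostrin (127 against 132 CPM) were close. Dab2 was lower in the negative library at 288 against 619 CPM, a log2 ratio of -1.10 beside -1.53 between the remaining cells. Sox17 was at 197 against 158 CPM, with 0.31 beside -1.76. Dab2 and Sox17 are in the sum that chose the cells of each library, so the shares of cells with a UMI of them are partly set by that choice and are given as a description, with intervals that cover counting error only. With thinned cells and all 508 cells of the positive library, Dab2 was detected in 57.3% (50.6 to 63.9) of the endoderm-like cells of the negative library and 87.4% (84.2 to 90.2) of those of the positive library. Sox17 was detected in 66.2% (59.6 to 72.4) and 39.2% (34.9 to 43.6). Without thinning the shares were 74.7% and 94.7% for Dab2 and 84.4% and 57.7% for Sox17, at median depths of 40328 and 29744 UMIs. Tcf15, a helix-loop-helix factor of cells leaving the naive state, was higher in the negative library at 149 against 33.7 CPM, with a log2 ratio of 2.12 beside 1.65 between the remaining cells of the libraries. Bmp4 was higher at 29.2 against 9.41 CPM, with 1.54 beside 0.59. Fgfr2 was at 46.0 against 26.3 CPM, a log2 ratio of 0.78, while the remaining cells had -0.99. P4ha2 was lower at 77.6 against 297 CPM (-1.92 beside -3.10), and Krt18 at 17.4 against 87.5 CPM (-2.26 beside -1.98).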

How the data were processed

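Single-cell transcriptomes were analysed in 1 library per group. The values the authors deposited are raw counts, a sparse matrix of 55415 features by cells for each library. Molecule counting is not stated, and the counts are taken as UMIs from the 16-base cell barcodes. The submitters' processing notes name FastQC 0.11.2, Trim Galore 0.6.4, STAR 2.7.6a and the build mm10, with no roles. Cell calling, strand setting and annotation are not given in the sources used here, and the labels' extraction text describes bulk RNA kits.

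Cells with under 10000 UMIs were left out. CPM were formed from UMIs summed over cells; log2 ratios add 1 CPM to each side, and other ratios use CPM alone. Shares of cells are given before and after thinning to 10000 UMIs. A level of 0 allows up to 3 counts. No doublet caller was run, and an alternative dropped cells above 2 times the median UMIs. With 1 library per group no test between groups was made. Alternatives changed the choice of cells, depth, scaling (edgeR's TMM, the median of ratios, the mean of each cell's CPM, and CPM without mitochondrial and ribosomal protein genes), filter, ratio and pseudocount. The size rule and the interval of a ratio were tested on simulated counts drawn without variation between cells.

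The cells, markers and gene lists were chosen with earlier results of these data known. Named genes are list members and, for each direction, the 15 largest ratios among genes that met the size rule and kept their direction in every scaling; Fgf10, Klb, Tfec, Tcf15 and the classes within the endoderm-like cells were picked after values were seen. Upstream sequences came from RefSeq (GRCm38.p6). Tools were R 4.3.3 with edgeR 4.0.16, and Python 3.11.15 with matplotlib 3.10.9, pandas 2.3.3, scipy 1.17.1 and numpy 2.4.6. Values of some listed genes are not reported here.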

Additional observations from a re-analysis of the deposited data

How the results depend on the processing

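The alternatives covered the share of cells, the counts of genes, the medians of 13 lists and 30 named genes, and not the classes or the comparison between libraries. None of these medians and log2 ratios changed sign, but the median over all 7604 genes did, at -0.04 with TMM against 0.03 with CPM, and sizes moved. Counting intervals were formed without the added 1 CPM, so they are not set against the log2 ratios of named genes. Of 240 such log2 ratios recomputed, 17 moved by more than 1.5 times. Of these 17, 16 came with the threshold of 0.1% of UMIs, which by construction places the cells below it among the remaining cells. There Foxq1 had a log2 ratio of 5.74 instead of 6.83, Cyp4f14 5.57 instead of 6.72, Fbp2 4.56 instead of 5.62, Gm49089 4.07 instead of 5.06, Tcea3 -3.29 instead of -2.28 and Nanog -3.63 instead of -2.87. The other was Fgf4, at -3.68 instead of -2.97 without cells above 2 times the median UMIs. The share of endoderm-like cells was 3.87% with a threshold of 0.1% of UMIs and 4.31% without Gata6 in the sum, against 5.88%, and lay between 5.57% and 6.07% in the other alternatives. A ratio of at least 4 gave 146 genes higher and 31 lower. A floor of 1 CPM gave 753 higher and 555 lower, and no floor gave 826 higher and 555 lower; these floors admit more genes by construction. In the other alternatives the counts lay between 411 and 593 higher and 251 and 355 lower, including the one chosen after the data were seen, in which cells with Dab2 at 0 were left out (515 and 321). No paired analysis was possible because there is a single library per group, so no replicate could be left out either.

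Depth limits genes of few UMIs: in the 12 cells with Gata6 only, 3 counts correspond to 7.45 CPM, so differences among low genes there are not detectable. Shares of cells with a UMI depend on depth, and intervals do not cover variation between cultures. Counting without known strand or unique-mapping settings leaves genes that overlap or share sequence uncertain.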

Other observations

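Further genes were higher in the endoderm-like cells and were picked after their values were seen. Aqp8, a water channel, stood at 35.1 CPM against 0.245 CPM in the remaining cells, Flrt3, an adhesion and FGF receptor partner, at 98.0 against 2.66 CPM, and Sdc4, a heparan sulfate proteoglycan, at 654 against 61.2 CPM. Plaur, the receptor of urokinase, stood at 46.4 against 1.93 CPM, Nrg1 and Nrg2, ligands of ERBB receptors, at 32.5 against 1.74 CPM and 43.4 against 2.28 CPM, and Bmp6, a BMP ligand, at 12 against 0.361 CPM. Hmga2, a chromatin protein of fetal tissues, stood at 119 against 11 CPM.

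Lower in the endoderm-like cells were Kit, the receptor of stem cell factor, at 5.67 against 30.7 CPM, Foxd3, a forkhead factor of the epiblast, at 4.20 against 23.6 CPM, and Igfbp2, a binding protein of insulin-like growth factors, at 105 against 429 CPM.

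Ly6a, a surface antigen, stood at 46.4 CPM in the endoderm-like cells of the negative library. Those of the positive library under 0.1% of 2C UMIs had 17.0 CPM, a log2 ratio of 1.39. Between the remaining cells of the libraries, which were not limited by 2C UMIs, the log2 ratio was -0.80. Whether these differences differ was not tested.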
